A study of Mus musculus with 2 samples.

Results

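Genes that encode intermediate filament proteins were examined in mouse neural stem cells labelled as wild type or as a conditional knockout of Hikeshi. The 10 members were taken by symbol from a deposited table of 15953 genes, and all of them were listed: Nes, Vim, Gfap, Synm, Nefl, Nefm, Nefh, Ina, Lmna and Lmnb1. Total RNA was sequenced from neural stem cells in suspension culture, giving 1 wild-type library and 1 Hikeshi cKO (conditional knockout) library by their labels. Hikeshi is the nuclear import carrier of HSP70 chaperones, and the study asks, per its title, how its loss affects proliferation and differentiation of these cells. Cells of both groups were isolated from mice. The Cre driver, the deleted part of the gene, the age of the animals and the number of animals behind each library are not given by the labels.

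Intermediate filaments are rope-like polymers of coiled-coil proteins, and a cell's set of them follows its lineage. Neural progenitors assemble vimentin together with nestin, astrocytes add glial fibrillary acidic protein, and neurons build neurofilaments from light, medium and heavy chains with alpha-internexin. Lamins, the nuclear members of the family, line the inside of the nuclear envelope. GFAP is widely used to mark astrocytes and is also made by some adult neural stem cells.

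The libraries held 18912683 reads (cKO) and 18839079 reads (wild type) counted over genes. Levels between libraries are given as CPM, the reads of a gene per 1000000 reads counted in that library. Levels of different genes are compared as the deposited TPM, which corrects for transcript length. A fold is a ratio of CPM with its 95% exact binomial (Clopper-Pearson) interval from the reads of both libraries. There is no replicate at 1 library per group, hence no test of the genotypes, and the intervals cover counting error only. Hikeshi itself, the targeted gene, had 640 reads (labelled cKO) and 718 reads (labelled wild type), close to even (ratio 0.888, 0.797 to 0.989), and this count did not settle the genotype. The libraries also differed in 4 Y-linked genes, with 2931 reads in the cKO library and 1 in the wild-type library. Every difference below therefore coincides with that difference too, and its part in the results cannot be told apart from that of the genotype labels.

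The upstream sequences of 3 members are shown as a description, chosen because Vim and Nes were higher and Gfap was lower in the cKO library. Whether the sequences bear on these differences was not tested. Each is the 250 bases before the transcription start, 5′ to 3′ on the strand of the gene, from RefSeq on build GRCm38.p6. Capitals mark matches, on either strand, to any of 6 motifs, and no match overlapped another. The TATA box was searched as TATAAA, and the box bound by the factor NF-Y was searched as CCAAT. Binding sites of SP1 are known as GC boxes and were searched as GGGCGG. The letters for AP-1 factors were TGANTCA, those for STAT factors were TTCNNNGAA, and NFI was searched by its palindromic motif.
Vim, chr2:13574061-13574310, plus strand: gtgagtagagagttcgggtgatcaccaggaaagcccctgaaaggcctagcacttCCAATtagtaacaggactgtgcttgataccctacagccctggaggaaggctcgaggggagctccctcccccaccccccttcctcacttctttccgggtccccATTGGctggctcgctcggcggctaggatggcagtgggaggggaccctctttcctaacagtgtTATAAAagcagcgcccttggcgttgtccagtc
Nes, chr3:87970843-87971092, plus strand: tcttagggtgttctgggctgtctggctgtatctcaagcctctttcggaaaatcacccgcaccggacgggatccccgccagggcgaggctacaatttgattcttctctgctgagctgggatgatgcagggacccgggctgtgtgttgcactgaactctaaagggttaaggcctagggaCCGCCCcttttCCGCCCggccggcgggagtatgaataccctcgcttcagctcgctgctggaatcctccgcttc
Gfap, chr11:102897201-102897450, minus strand: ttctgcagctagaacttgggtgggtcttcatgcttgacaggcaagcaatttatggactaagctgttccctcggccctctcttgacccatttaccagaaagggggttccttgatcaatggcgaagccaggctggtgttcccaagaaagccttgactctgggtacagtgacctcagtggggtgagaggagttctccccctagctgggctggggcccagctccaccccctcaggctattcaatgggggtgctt
In the Vim window TATAAA lay at -32 to -27 from the start, with CCAAT matches at -196 to -192 and, on the opposite strand, at -94 to -90. The Nes window held 2 GC boxes on the opposite strand, and the Gfap window held no match to these motifs. Of 32851 promoter windows of the same length in the reference table, 12.4% held TATAAA, 33.8% CCAAT and 32.7% GGGCGG. AP-1 letters were in 6.75% of windows, STAT in 7.02% and NFI in 0.0365%. Among the members, 7 windows of 6 genes were examined (Nes, Vim, Gfap, Synm, Ina and Lmna), and no window of the other members was. CCAAT was found in 3 of these windows, in Vim, Synm and 1 of 2 Lmna windows. The E-box CANNTG, present in 66.2% of all windows and not marked above, occurred in the Synm and Ina windows. These are matches of letters and say nothing about binding.

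Vimentin transcripts dominated the family in both libraries, and the library labelled cKO held more of them and far fewer Gfap transcripts. Of the 10 members, 9 reached 1 CPM, and each of those 9 did so in both libraries. Counting a member when CPM + 1 differed by at least 1.5-fold, 4 were higher in the cKO library (Vim, Nefl, Nefm and Lmna), against 4.22% of the 12618 genes kept. Another 3 were lower (Gfap, Synm and Ina), against 10.2% of genes kept. Nes and Lmnb1 lay within 1.5-fold. The median log2 difference of the 9 members was 0.46, and that of all genes kept was -0.02. On the same log2(CPM + 1) scale, Nefm was at least 2-fold higher (as were 1.25% of genes kept) and Gfap at least 2-fold lower (3.85%), while Synm was 2-fold lower only by the plain CPM ratio.

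**Figure D1:**
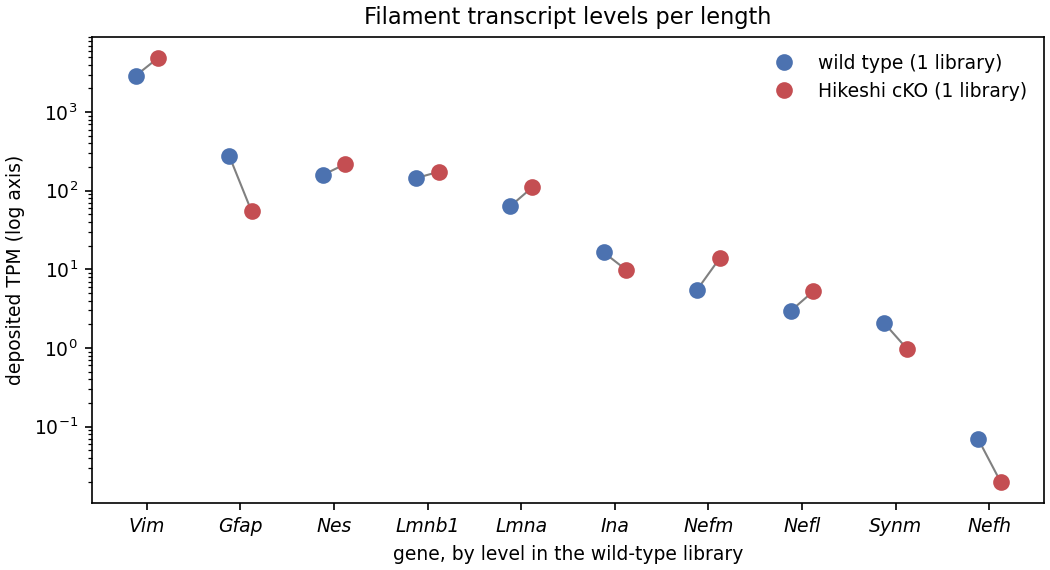
Deposited TPM (log axis) of the 10 members in the wild-type library (blue) and the Hikeshi cKO library (red), 1 library each, ordered by the wild-type level; grey lines join the values of a gene. Gfap moved from the second place of the wild-type order to the fifth of the cKO order, and Vim was first in both.

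Vim encodes vimentin, the type III filament of progenitors and immature glia. Its level was 4578 CPM in the cKO library and 2716 CPM in the wild-type library, from 86583 and 51167 reads. This gave a ratio of 1.69 (1.67 to 1.70), so the counting error was small beside the difference. By TPM, Vim ranked 7 of all genes listed in the cKO library, at 4877, and 35 in the wild-type library, at 2891. Of the genes kept, 296 (2.35%) had a log2 difference above that of Vim.

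Nestin, encoded by Nes, copolymerizes with vimentin in dividing progenitors. Its level was 780 CPM (cKO) and 569 CPM (wild type), a ratio of 1.37 (1.34 to 1.41). It was higher in the cKO library by less than vimentin. The ratio of Nes to Vim reads was accordingly 1.23-fold lower in the cKO library (1.20 to 1.26), a comparison within each library that needs no scaling between them. Nes lies on chromosome 3 (87971093 to 87980451) and Vim on chromosome 2 (13574311 to 13582826).

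Gfap, the filament gene of astrocytes, had the largest difference of the members. Its level was 80.3 CPM in the cKO library and 412 CPM in the wild-type library, from 1519 and 7765 reads. The cKO level was 5.13-fold lower (4.86 to 5.43), and 45 of the genes kept (0.357%) lay further down. Per length, Gfap stood above Nes in the wild-type library (278 against 158 TPM) and below it in the cKO library (54.4 against 218 TPM). The wild-type library thus held 10.4 Vim transcripts for each Gfap transcript by TPM, and the cKO library 89.6. In reads, the ratio of Gfap to Vim was 8.65-fold lower in the cKO library (8.18 to 9.15) and that of Gfap to Nes 7.04-fold lower (6.63 to 7.48). In bulk RNA, fewer cells of a type and less RNA per cell cannot be told apart.

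Astrocyte markers moved with Gfap. Of 13 astrocyte markers other than Gfap, 12 were at least 1.5-fold lower in the cKO library and 0 higher. Of genes kept, 10.2% were lower and 4.22% higher. The median log2 difference of the 13 markers was -1.16. Their summed level was 3859 CPM (cKO) and 7314 CPM (wild type), and none was at 0 in either library. Clu, a secreted chaperone, was the member within 1.5-fold (1.42-fold higher, 1.35 to 1.49). On the log2(CPM + 1) scale Gfap, at -2.35, lay below all 13, the nearest being the water channel gene Aqp4 at -2.23. By plain CPM ratio 2 low genes differed more, the calcium-binding protein gene S100b (40 against 216 reads) and the connexin gene Gjb6 (1 against 38). How far a change in the share of astrocytes enters the Gfap value was not tested.

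Markers of neural stem cells and radial glia, among which Nes and Vim are usually counted, were mostly level or lower in the cKO library. Of 9 such markers besides the filament genes, 1 was higher (the matrix protein gene Tnc) and 3 were lower. Of genes kept, 4.22% were higher and 10.2% lower. The lower markers were Hes5 (2.57-fold, 2.25 to 2.93), Prom1 (1.92-fold, 1.52 to 2.45) and Fabp7 (1.51-fold, 1.49 to 1.54). Fabp7 has an interval that reaches below 1.5-fold, so its place past that threshold is within counting error. The other 5 had ratios from 0.742 (Hes1) to 0.993 (Sox2), and the median log2 difference of the 9 was -0.17. Their summed level was 4233 CPM in the cKO library and 3270 CPM in the wild-type library, of which Tnc made up 2402 and 731 CPM. The upward differences of Vim and Nes were therefore not shared by most genes of that list. Fibroblast and pericyte markers, which could accompany vimentin, summed to 73.2 CPM (cKO) and 42.1 CPM (wild type) over 9 listed genes. Of 5 kept, 1 was higher and 2 lower, against 4.22% and 10.2% of genes kept. The higher one, Prrx1, made up 59.5 and 25.1 CPM of these sums, and the other 8 genes summed to 13.6 CPM (cKO) and 17.0 CPM (wild type). Their part in the vimentin value was not tested.

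**Figure D2:**
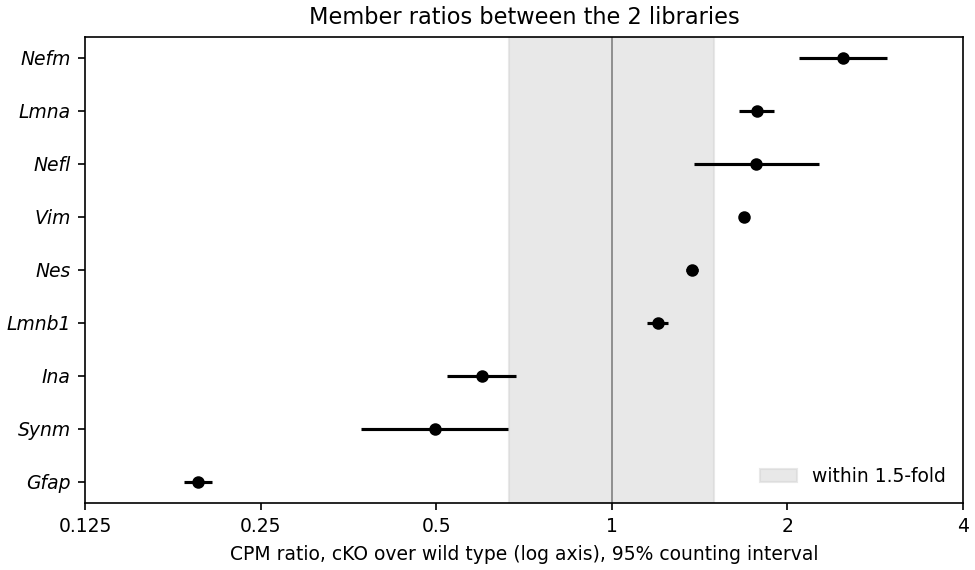
CPM ratio of the 9 kept members, cKO over wild type (log axis), with the 95% counting interval as a bar (shorter than the point for Vim and Nes); grey marks ratios within 1.5-fold. Gfap, Synm and Ina lay to the left at 0.195, 0.498 and 0.599, and Nefm furthest right at 2.49.

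Synemin, encoded by Synm, is a large filament protein that links other filaments to adhesion sites and needs a partner such as vimentin to assemble. Its transcripts were sparse, at 3.91 CPM (74 reads) in the cKO library and 7.86 CPM (148 reads) in the wild-type library. The cKO level was 2.01-fold lower, with a wide interval of 1.51 to 2.69. Synm was thus lower in the library in which Vim was higher.

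The neurofilament chains were split between the libraries. Nefm, the medium chain, had 24.9 CPM (470 reads) in the cKO library and 9.98 CPM (188 reads) in the wild-type library, 2.49-fold higher (2.10 to 2.97). Nefl, the light chain needed to start a neurofilament, had 9.94 CPM (188 reads) and 5.63 CPM (106 reads), 1.77-fold higher (1.39 to 2.26). The interval of Nefl reaches below 1.5-fold, so its place above that threshold is within counting error. Ina, which encodes alpha-internexin, the chain of early neurons, went the other way. It had 17.9 CPM (339 reads) in the cKO library and 29.9 CPM (564 reads) in the wild-type library, 1.67-fold lower (1.46 to 1.92), an interval that likewise reaches below 1.5-fold.

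Heavy chain transcripts were nearly absent. Nefh, the chain of mature large axons, had 1 read in the cKO library and 3 in the wild-type library, both at or under the floor of 3 reads, so no fold is given. A level of up to 5.57 reads (cKO) and 8.77 reads (wild type) is within the 95% Poisson limits of these counts.

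The 4 chains together differed little, at 52.8 CPM (cKO) and 45.7 CPM (wild type), a ratio of 1.15 (1.05 to 1.27), but their makeup was different. By TPM, Ina made up 65.8% of neurofilament transcripts in the wild-type library and 34.1% in the cKO library, while Nefm went from 22.1% to 47.7% and Nefl from 11.9% to 18.1%. The ratio of Nefm to Ina reads was 4.16-fold higher in the cKO library (3.33 to 5.20). That of Nefm to Nefl was 1.41-fold higher, with a lower limit of 1.04. Ina shares 494 bases of its locus with Nt5c2, a nucleotidase gene, and the deposited counts of both were not whole numbers. Nt5c2 was lower as well, with 536 reads (cKO) and 802 (wild type), and the reads of both genes together had a ratio of 0.638 (0.585 to 0.695). How reads of the shared bases were divided between the 2 genes is not known, so this sum does not bound the error in the Ina value. Nefm shares 1253 bases of its locus with the long noncoding RNA gene A230070E04Rik, which was not among the genes analysed here.

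Neuronal markers did not follow the neurofilament genes as a group. Of 12 kept, 1 was at least 1.5-fold higher and 4 were lower, against 4.22% and 10.2% of genes kept. The median was -0.23, and the list summed to 1386 CPM (cKO) and 1550 CPM (wild type). The higher one was Gap43, a growth cone protein gene, at 330 against 168 CPM (1.97-fold, 1.88 to 2.05). The lower ones were Dcx, a microtubule protein gene of young neurons, at 80 against 824 reads (10.3-fold, 8.21 to 13.2), the adhesion gene Ncam1 (2.12-fold, 2.04 to 2.21) and the synaptic genes Snap25 (1.73-fold, 1.54 to 1.95) and Syp (1.62-fold, 1.40 to 1.89). Levels within the list ranged widely, from Stmn2 with 3 (cKO) and 7 (wild type) reads to Map2, a dendrite protein gene, with 9362 and 10909 reads.

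The lamins were both higher in the cKO library. Lmna, which makes lamins A and C by alternative splicing and is high in stiff or differentiated tissues, had 126 CPM (2381 reads) in the cKO library and 71.1 CPM (1339 reads) in the wild-type library. Its ratio was 1.77 (1.66 to 1.90), and 1.94% of genes kept lay higher. Lmnb1, which encodes a B-type lamin, had 272 CPM (5138 reads) and 227 CPM (4272 reads), a ratio of 1.20 (1.15 to 1.25). Lmnb1 exceeded Lmna per length in both libraries, by 2.30 times in the wild-type library and 1.57 times in the cKO library. In reads, the ratio of Lmna to Lmnb1 was 1.48-fold higher in the cKO library (1.37 to 1.60). Lmnb2, the other B-type lamin, came from a list of further filament genes and had a ratio of 1.11 (1.03 to 1.21).

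**Figure D3:**
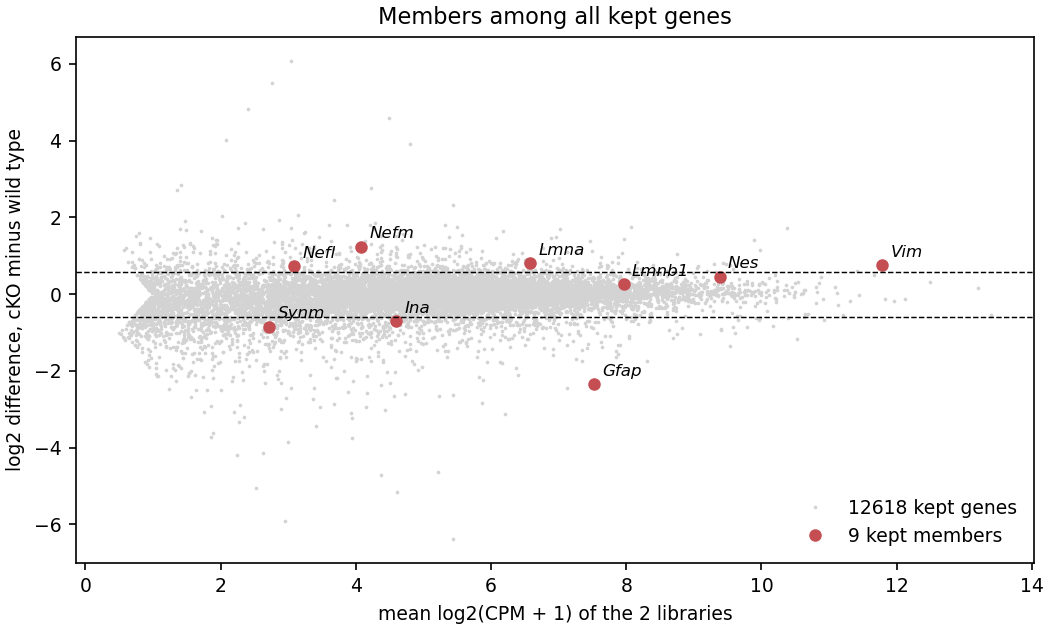
Difference of log2(CPM + 1), cKO minus wild type, against the mean of both libraries for 12618 genes kept (grey) and the 9 kept members (red), with dashed lines at 1.5-fold. Vim lay toward the right with a difference of 0.75, and Gfap lay near the lower edge of the cloud at -2.35.

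As a composition, the family had more vimentin and less GFAP in the cKO library. The 10 members summed to 5465 TPM (cKO) and 3562 TPM (wild type). Vim accounted for 89.2% of this sum in the cKO library and 81.1% in the wild-type library. Gfap accounted for 0.996% in the cKO library and 7.81% in the wild-type library, a difference of -6.82 percentage points. Nes held 3.99% and 4.44%, Lmnb1 3.19% and 4.07%, and Lmna 2.03% and 1.77% (cKO and wild type in each case). The other 5 members made up under 1% in each library.

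Without Vim, the cytoplasmic members changed rank. Gfap was the main one in the wild-type library, with 60.0% of the TPM of these 7 genes, and Nes in the cKO library, with 72.1%. Gfap held 18.0% there and Nes 34.1% in the wild-type library. Nefm went from 1.19% to 4.57%. The 7 genes summed to 303 TPM (cKO) and 464 TPM (wild type), and by reads had a ratio of 0.887 (0.869 to 0.905). The summed reads of all 10 members, most of them from Vim, were 1.46-fold higher in the cKO library (1.44 to 1.47).

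**Figure D4:**
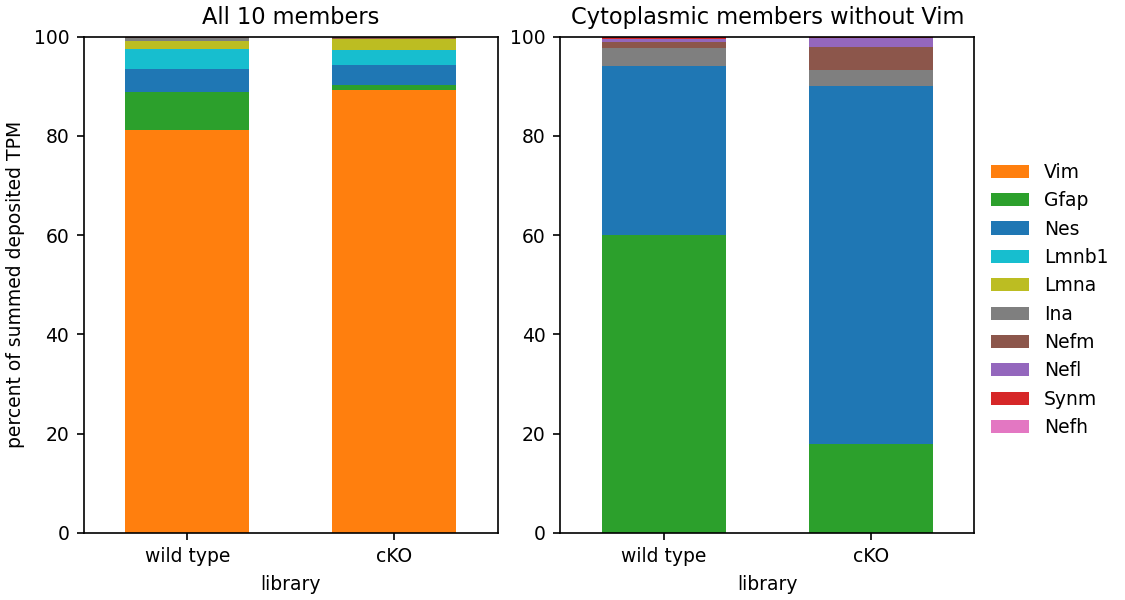
Percent of the summed deposited TPM held by each member in the wild-type and cKO libraries, for all 10 members (left) and for the 7 cytoplasmic members without Vim (right). Gfap (green) took 7.81% and 0.996% on the left and 60.0% and 18.0% on the right.

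Other filament genes were mostly low. Of 24 on a fixed list, 16 were in the table and 7 were kept (median -0.09). Of those 7, 1 was at least 1.5-fold higher and 2 lower, against 4.22% and 10.2% of genes kept. Bfsp2, a beaded filament gene best known from the eye lens, was 4.85-fold lower in the cKO library (42 against 203 reads, 3.47 to 6.94). Sync, which encodes syncoilin, a partner of desmin in muscle, was 1.99-fold higher (48 against 24 reads, 1.20 to 3.40). The epidermal keratin gene Krt1 had 7 against 21 reads. Peripherin (Prph), the type III filament of peripheral neurons, and desmin (Des), that of muscle, were below 1 CPM in both libraries. The epithelial keratin genes Krt8 and Krt18 had at most 2 reads in a library.

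Linkers and modifiers of filaments lay mostly within 1.5-fold, as did 10796 of the 12618 genes kept. Of all genes kept, 4.22% were higher and 10.2% lower. Of 8 kept plakin and junction genes, 2 were higher and 0 lower (median 0.17). Periplakin (Ppl), a linker of epithelial cells, was 3.20-fold higher (45 against 14 reads, 1.73 to 6.32), and plakoglobin (Jup), a junction protein gene, 1.64-fold (1.42 to 1.89). Of 16 kinases, chaperones and turnover factors, 2 were higher and 1 lower (median 0.15). The kinase gene Rock2, whose product phosphorylates vimentin and GFAP, was 1.66-fold higher (1.56 to 1.76), and Hspb1, which encodes a small heat shock protein, 3.94-fold (2.52 to 6.39). Padi2, an enzyme that citrullinates GFAP and vimentin, was 4.33-fold lower (41 against 177 reads, 3.07 to 6.25). Cryab, a chaperone that binds GFAP filaments, had 1315 reads in the cKO library and 1332 in the wild-type library.

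Partners of the lamina lay mostly within 1.5-fold, as did most genes kept. Of 21 kept genes for lamina partners and prelamin processing, 1 was higher and 1 lower, against 4.22% and 10.2% of genes kept. The median was 0.01. Syne1, encoding the nesprin that ties the nuclear envelope to the cytoskeleton, was 1.80-fold higher in the cKO library (1.67 to 1.94). Narf, named for binding prelamin A, was 1.69-fold lower (1.55 to 1.85). Zmpste24, the protease that matures lamin A, had a ratio of 1.16 (1.08 to 1.25).

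**Figure D5:**
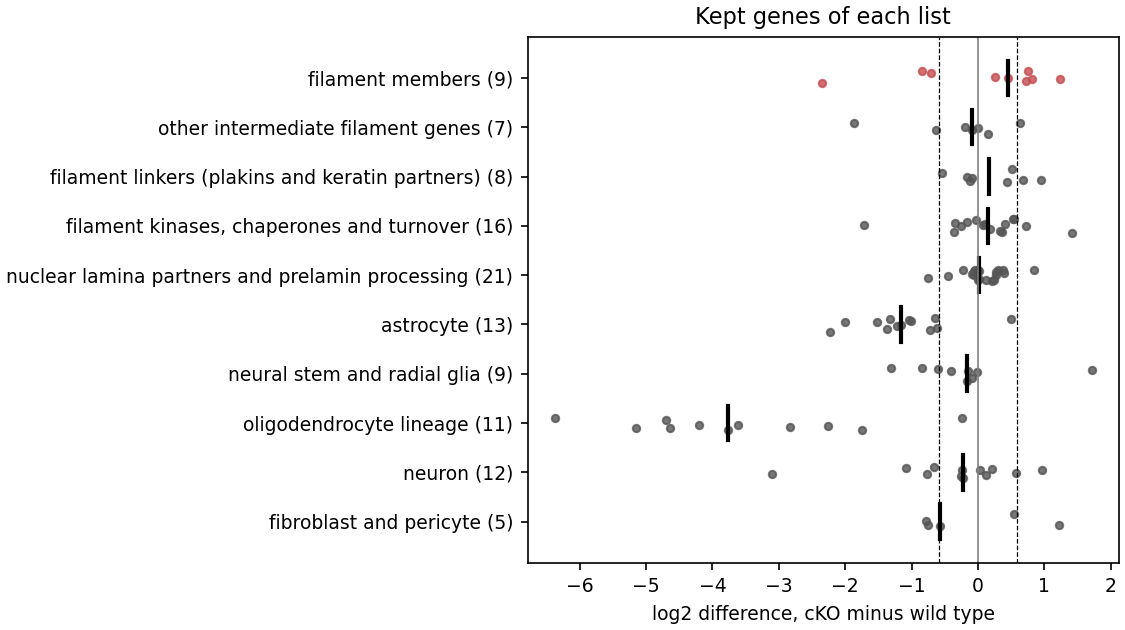
Difference of log2(CPM + 1), cKO minus wild type, for the kept genes of each list with at least 3 kept (number in parentheses), with the median as a black bar and 1.5-fold as dashed lines. The filament members spread from -2.35 to 1.24, while the astrocyte and oligodendrocyte lists lay mostly to the left.

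The oligodendrocyte lineage, the other glial lineage of such cultures, was lower too. Of 11 kept markers, 10 were at least 1.5-fold lower, against 10.2% of genes kept. The list summed to 333 CPM (cKO) and 1636 CPM (wild type). Microglia markers did not reach 1 CPM in either library, and endothelial markers summed to 8.30 CPM (cKO) and 9.24 CPM (wild type). Ependymal markers summed to 10.6 CPM (cKO) and 13.9 CPM (wild type), and markers of peripheral neurons and Schwann cells to 6.72 CPM (cKO) and 5.79 CPM (wild type).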

How the data were processed

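RNA-seq of neural stem cells in suspension culture gave 1 library per genotype, grouped by the genotype labels. The submitters' processing notes list the genome build GRCm38.p6 (aligner, counter, annotation and strand setting not given in the sources used here). In 1 table the authors deposited estimated counts per gene, TPM, FPKM and a signal, the normalized read count, all named per the file headers. Estimated counts, of which 89.8% (cKO) and 90.0% (wild type) were whole numbers, were rounded to whole reads and divided by column totals (CPM). Genes reaching 1 CPM in at least 1 library were kept (12618 of 15953), and log2 differences used a pseudocount of 1 CPM. Intervals are 95% exact binomial, or exact conditional for ratios between members, from scipy 1.17.1. Intervals cover counting error only and can be too narrow even for that, because reads lacking molecular identifiers can be copies of 1 molecule. Code was tested on simulated data. Alternatives used edgeR 4.0.16 (TMM), DESeq2 1.42.0 (size factors), the deposited TPM, FPKM and normalized read counts, other pseudocounts, filters and thresholds. Coordinates and promoters came from RefSeq GRCm38.p6 tables, transcript lengths from GENCODE. All members, Hikeshi and, from each list, genes at least 1.5-fold apart (at most 4 in each direction) were to be named, and not all of these are; other genes were named after their values were seen. Members and lists were chosen with earlier results of these data known. Protein features planned at the outset were not analysed here.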

Additional observations from a re-analysis of the deposited data

How the results depend on the processing

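No paired analysis was possible because each group had 1 library, and for the same reason no replicate could be left out. At a threshold of 2-fold on the log2(CPM + 1) scale, 1 member was higher and 1 lower, in place of 4 and 3 at 1.5-fold. Of genes kept, 1.25% were higher and 3.85% lower at 2-fold, in place of 4.22% and 10.2%. Pseudocounts of 0.1 and 5 CPM, no filter, a filter of 10 CPM and other scalings gave 3 to 4 members higher and 2 to 3 lower. Of the genes kept under each of these settings, 2.41% to 5.37% were higher and 5.34% to 12.3% lower. The ratio of the summed members, 1.46 by column totals, was 1.48 with edgeR's TMM factors, 1.47 with DESeq2's size factors and 1.53 by TPM. Read shares without length correction put Vim at 77.7% (cKO) and 67.1% (wild type) and Gfap at 1.36% and 10.2%. Without the lamins Vim held 94.2% and 86.2% of TPM and Gfap 8.30% in the wild-type library. The ratios of single members kept their direction under all scalings tried, for example 0.194 to 0.198 for Gfap and 1.68 to 1.71 for Vim. Summing Ina with Nt5c2 was chosen after seeing the data. Depth limits Nefh, Synm and Nefl most.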

Other observations

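Transcript length implied by the deposited values (reads divided by FPKM and library size) was compared between the libraries, since it moves when the isoform mix moves. Over 10432 genes with at least 100 reads in each library, the ratio of implied lengths, cKO over wild type, lay between 0.959 and 1.05 for 95% of genes. The 8 members with that many reads lay inside this range. Lmna, spliced into lamins A and C, had 1.01 (1846 against 1823 bases). GENCODE lists Lmna transcripts of 3156 bases with 665 codons and of 2021 bases with 574 codons. Nefl, Ina and Lmnb1, which have 1 coding transcript each in GENCODE, had implied lengths 288 to 306 bases below it in the cKO library. Synm had 6521 against 6138 bases from 74 and 148 reads, too few for the comparison, and GENCODE lists 5 coding transcripts of 2697 to 7818 bases.

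Nefl and Nefm, both higher in the cKO library, are neighbours on chromosome 14, with 30.4 kb between them (68083863 to 68089095 and 68119545 to 68125004). Nes and Lmna (88481148 to 88509932) lie 501 kb apart on chromosome 3. Ina, which was lower, is on chromosome 19 (47014681 to 47025327), and Gfap on chromosome 11 (102887336 to 102897200). Nefh is also on chromosome 11 (4938754 to 4948064), where it shares 745 bases with Ap1b1. Synm is on chromosome 7 (67730161 to 67759742) and Lmnb1 on chromosome 18 (56707813 to 56753424). All positions are whole genes on GRCm38.p6.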
